A study of Mus musculus with 8 samples.

Results

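Cytokine receptor genes of mouse macrophages were followed across genotype, IFN-gamma and calcitriol, the vitamin D hormone. The 10 genes were Il3ra, Il4ra, Il6ra, Il10ra, Il13ra1, Il15ra, Csf2ra, Csf2rb, Tnfrsf1a and Tnfrsf1b, taken as a list of receptor chains, and every probe set that the platform annotation pairs with one of them was included. All 10 were measured, of 12393 genes named by a probe set of the array, through 23 of its 22690 probe sets. Of these, 22 named 1 gene and passed the signal filter, and 1 named both Csf2rb and its neighbour Csf2rb2 and was not used for a gene. Bone marrow of wild-type mice or of Vdr tm1 Rge knockout mice, which lack the vitamin D receptor (Vdr-/-), was cultured for 7 days with M-CSF (50 ng/ml), a cytokine that drives macrophage growth. The labels also describe peritoneal macrophages, but name all 8 samples as marrow-derived. Each genotype had an untreated array, an array with calcitriol, an array with IFN-gamma and an array with both, which makes 8 groups of 1 array. Treatments lasted 24 to 48 hours. All 8 groups share the M-CSF culture. No group has a replicate, so each test rests on a contrast repeated across the other factors, and the sources do not say whether arrays came from separate mice or cultures.

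Cytokine receptors are assembled from chains. A ligand-specific chain such as Il4ra, Il6ra or Il10ra binds the cytokine, a partner chain completes the complex, and JAK kinases bound to the chains then activate STAT transcription factors. Csf2rb is the chain that the receptors for IL-3, IL-5 and GM-CSF share, and Il4ra is shared by the receptors for IL-4 and IL-13. The TNF receptors form a separate family: Tnfrsf1a carries a death domain and is found on most cells, while Tnfrsf1b lacks it and is found mainly on immune cells.

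Values are linear signals that the authors had scaled per array. Signals up to 15.5, the 25th percentile of all values, were set to 15.5 (called the floor), and changes are differences of log2 signals. Log2 signals of the tested probe sets correlated between arrays with Pearson's r of 0.741 to 0.897, across probe sets that are not independent. The Gapdh 3'/5' control ratio rises when labelled RNA is truncated. It was 7.67 on the wild-type calcitriol array, 4.82 on the array labelled Vdr-/- untreated and 3.06 with IFN-gamma in Vdr-/-. On the remaining 5 it was between 0.853 and 1.65. The actin 3'/5' control ratio was 4.08, 3.27 and 1.53 on the named arrays in that order, and 1.39 to 1.81 on the remaining 5. Vdr signals were higher in wild type in 3 of the 4 treatments but not on the untreated arrays, where probe set 1418175_at gave 6.7 for the one labelled wild type and 90.3 for the one labelled Vdr-/-. The sources do not place this probe set relative to the deleted part of Vdr, and every direction that uses an untreated array rests on these labels. The 9 macrophage markers (Csf1r, Adgre1, Cd68 and others) were above the floor on all 8 arrays.

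Promoter windows of the 4 genes with a called change are shown because 3 of them moved with IFN-gamma, and GAS and ISRE elements are known from promoters of interferon-responsive genes. The windows are the 250 bases before the start in RefSeq's GRCm38.p6 annotation, written 5′ to 3′ on the gene's strand, with capitals marking the letters TTCNNNGAA (GAS) and the ISRE core (GAAA, NN and GAAA in a row) found on either strand. They are chr6:125349473-125349722 (plus strand) for Tnfrsf1a, chr4:145246871-145247120 (minus) for Tnfrsf1b, chr7:125552021-125552270 (plus) for Il4ra and chr14:14346245-14346494 (plus) for Il3ra. The Il3ra window lies inside the annotated gene, which begins at 14345912, so the start used for Il3ra is a later one.
Tnfrsf1a: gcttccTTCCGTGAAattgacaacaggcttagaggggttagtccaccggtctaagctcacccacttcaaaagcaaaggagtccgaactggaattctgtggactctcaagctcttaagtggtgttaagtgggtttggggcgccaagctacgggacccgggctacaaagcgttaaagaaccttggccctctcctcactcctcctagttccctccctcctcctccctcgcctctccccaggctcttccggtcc
Tnfrsf1b: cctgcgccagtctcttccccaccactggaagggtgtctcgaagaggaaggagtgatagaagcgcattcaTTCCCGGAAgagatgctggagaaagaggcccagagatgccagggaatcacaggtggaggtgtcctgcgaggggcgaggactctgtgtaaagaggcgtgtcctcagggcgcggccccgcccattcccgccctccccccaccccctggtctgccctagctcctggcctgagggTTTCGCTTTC
Il4ra: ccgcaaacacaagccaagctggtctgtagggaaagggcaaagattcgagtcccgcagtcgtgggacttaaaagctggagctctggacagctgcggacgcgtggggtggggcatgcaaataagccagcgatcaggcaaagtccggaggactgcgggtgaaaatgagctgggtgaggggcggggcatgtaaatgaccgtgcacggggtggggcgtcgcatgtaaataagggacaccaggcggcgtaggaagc
Il3ra: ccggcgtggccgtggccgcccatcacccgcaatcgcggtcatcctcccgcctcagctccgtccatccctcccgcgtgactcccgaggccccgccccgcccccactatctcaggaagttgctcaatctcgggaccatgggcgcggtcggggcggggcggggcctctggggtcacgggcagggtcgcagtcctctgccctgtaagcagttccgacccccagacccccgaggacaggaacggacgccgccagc
The Tnfrsf1a window held a GAS match, TTCCGTGAA, 244 to 236 bases before the start. The Tnfrsf1b window held a GAS match, TTCCCGGAA, 181 to 173 bases before the start, and an ISRE core on the opposite strand in its last 10 bases. The Il4ra and Il3ra windows held neither. GAS letters were in 7.02% of all 32851 windows of this length and ISRE core letters in 2.98%. The letters of a vitamin D response element (NGNTCA, NNN and NGNTCA in a row) were in 0.545% of all windows and in none of the 9 windows of 8 member genes. Letters in a window are a description and not a measured binding site.

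The effect of IFN-gamma was taken over the 4 array pairs that share genotype and calcitriol. Tnfrsf1a and Il4ra rose and Tnfrsf1b probe set 1418099_at fell, while the other member probe sets did not pass the test. In all, 4 of the 22 member probe sets were called at a limma adjusted p under 0.05, 3 higher and 1 lower, against a background of 3.43% of 18058 probe sets (2.15% higher and 1.27% lower). These calls belong to 3 of the 10 genes, and 2 of the 4 are probe sets of Il4ra. The median change of the 22 was 0.46 log2 against -0.08 log2 over all tested probe sets, and 15 of the 22 had a positive change. Groups did not overlap for 5 of the 22, against 6.60% of all tested probe sets.

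**Figure D1:**
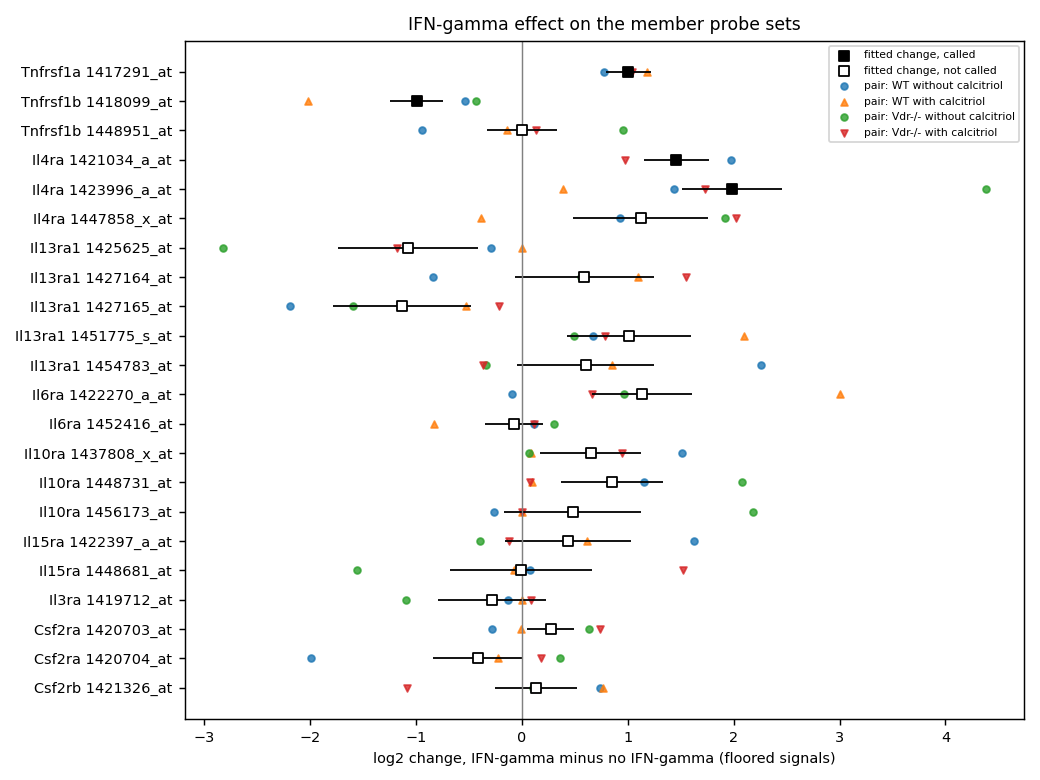
Change in log2 signal with IFN-gamma (x axis, floored signals) for each member probe set (y axis). Squares with bars are the fitted change ± SE over 4 pairs, filled where limma's adjusted p was under 0.05, and small symbols are the 4 pairs; the filled squares are Tnfrsf1a at 1.00, Tnfrsf1b 1418099_at at -0.99 and the Il4ra probe sets at 1.46 and 1.99.

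Tnfrsf1a, the TNF receptor with a death domain, has 1 probe set, 1417291_at. It read 823.3 on the array labelled untreated wild type, 572.9 with calcitriol, 1413.6 with IFN-gamma and 1297.8 with both. The Vdr-/- readings were 651.6, 609.7, 1315.7 and 1256.4 in the same order. Every array with IFN-gamma was above every array without it. The mean was 664.4 ± 111 (SD, n = 4) without IFN-gamma and 1320.9 ± 66.6 with it. The rise was 1.00 log2 (SE 0.212, limma adjusted p = 0.00484), and the 4 pairs ranged from 0.78 to 1.18 log2. No effect of calcitriol was called, with changes of -0.32 log2 in wild type (limma adjusted p = 0.752) and -0.08 log2 in Vdr-/- (0.997). The IFN-gamma call was lost without the signal filter (0.0764), without limma's intensity trend (0.349) and without the 2 arrays with the highest Gapdh ratio (0.90 log2, 0.234). It was also lost without the wild-type pair lacking calcitriol (0.0805), the wild-type pair with it (0.111) or the Vdr-/- pair lacking it (0.166).

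Tnfrsf1b, the TNF receptor of immune cells, has 2 probe sets that behaved differently. Probe set 1418099_at read 983.7 on the array labelled untreated wild type, 1235.3 with calcitriol, 677.1 with IFN-gamma and 303.8 with both. Readings in Vdr-/- were 912, 1120.2, 677.6 and 566.9. All 4 arrays with IFN-gamma lay below the other 4, and the lowest was the wild-type array with both agents. The mean was 1062.8 ± 144 (SD, n = 4) without IFN-gamma and 556.4 ± 176 with it, and the fall was 0.99 log2 (-0.99, SE 0.252, limma adjusted p = 0.0232). The pairs ranged from -2.02 to -0.43 log2. This call was lost without any 1 of the 4 pairs (limma adjusted p of 0.126 to 0.364). Left out, the wild-type pair with calcitriol moved the change to -0.65 log2. The call was also lost without the filter (0.42), with a stricter one (0.065), without the trend (0.462), with additive covariates (0.0865), with the untreated arrays' labels swapped (0.0685) and without the 2 arrays with the highest Gapdh ratio (0.378).

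The other Tnfrsf1b probe set, 1448951_at, had a change of 0.00 log2 with IFN-gamma (limma adjusted p = 0.999). It had 506.7 on the array labelled untreated wild type and 263.7 with IFN-gamma, but 110.8 with calcitriol and 100.6 with both. In Vdr-/- it read 117.7 on the array labelled untreated, 246.3 with calcitriol, 228.9 with IFN-gamma and 269.6 with both. The wild-type arrays with calcitriol were thus both below the wild-type arrays without it, and in Vdr-/- the order was the other way. The change with calcitriol was -1.79 log2 in wild type (SE 0.459, limma adjusted p = 0.0843) and 0.65 log2 in Vdr-/- (0.91). The difference between these effects was -2.44 log2 (SE 0.649, limma adjusted p = 0.0591), and neither passed the test. With the floor at the 40th percentile the difference was called (limma adjusted p = 0.038). The difference was -0.34 log2 (0.94) with the untreated arrays' labels swapped. The wild-type calcitriol array, among the low ones here, had the highest Gapdh 3'/5' ratio (7.67), and the array labelled Vdr-/- untreated, the lowest of its genotype, the next (4.82). Without both the changes were -1.66 log2 in wild type and -1.63 log2 for the difference, in an additive fit. The array with both agents was then the only wild-type calcitriol array.

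Il4ra encodes the chain that binds IL-4 and that also serves IL-13. Of its 3 probe sets 2 rose with IFN-gamma. Probe set 1421034_a_at read 116 on the array labelled untreated wild type, 105.7 with calcitriol, 455.2 with IFN-gamma and 287.6 with both, and 113.9, 201, 310.6 and 394.2 in Vdr-/-. The groups did not overlap, with means of 134.2 ± 44.8 (SD, n = 4) without IFN-gamma and 361.9 ± 77.2 with it. The rise was 1.46 log2 (SE 0.304, limma adjusted p = 0.00417), from 0.97 to 1.97 log2 in the 4 pairs. The call was lost without the filter (0.113), without the trend (0.211), without the 2 arrays with the highest Gapdh ratio (1.22 log2, 0.418), and without the wild-type pair lacking calcitriol (0.162), the wild-type pair with it (0.135) or the Vdr-/- pair lacking it (0.198).

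Il4ra probe set 1423996_a_at read 121.6 on the array labelled untreated wild type, 123.3 with calcitriol, 329.6 with IFN-gamma and 161.2 with both. The Vdr-/- readings were 7.6 on the array labelled untreated, 95.4 with calcitriol, 323.9 with IFN-gamma and 316.8 with both. Again every array with IFN-gamma was above the rest, and the reading of 7.6, below the floor, stood apart. The rise was 1.99 log2 (SE 0.472, limma adjusted p = 0.0141), and the pairs ranged from 0.39 to 4.39 log2. Without the Vdr-/- pair that holds the low array the change was 1.19 log2 (limma adjusted p = 0.476), and without the 2 arrays with the highest Gapdh ratio, of which it is 1, it was 1.34 log2 (0.336). The call was lost without each of the other pairs too (0.104 to 0.343), without the filter (0.467) or the trend (0.37), with a stricter filter (0.0552) and with the floor at the 10th percentile (0.0502). The third probe set, 1447858_x_at, ran from 14 to 103 and had a change of 1.12 log2 that was not called (limma adjusted p = 0.52), with 3 of 4 pairs higher. Calcitriol changes of Il4ra were not called in either genotype.

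Il13ra1, which joins Il4ra in the IL-13 receptor of macrophages, was dim on its 5 probe sets, with signals of 2.9 to 109.7. No change was called, and the probe sets went in both directions with IFN-gamma, from -1.13 to 1.01 log2. The nearest to a shared pattern was 1451775_s_at. It read 39.7 on the array labelled untreated wild type, 3.1 with calcitriol, 63.4 with IFN-gamma and 66.3 with both, and 58.8, 57.2, 82.5 and 98.6 in Vdr-/-. Its 4 arrays with IFN-gamma were above the other 4 (1.01 log2, SE 0.584, limma adjusted p = 0.528). Probe set 1427165_at went down in all 4 pairs (-1.13 log2, SE 0.648, limma adjusted p = 0.522).

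Il6ra encodes the IL-6 binding chain, which signals through Il6st. Its probe set 1452416_at read 301.2 on the array labelled untreated wild type, 372.7 with calcitriol, 326.2 with IFN-gamma and 210.3 with both, and 274.9, 302.5, 338.8 and 326.5 in Vdr-/-. The changes were -0.07 log2 with IFN-gamma (SE 0.277, limma adjusted p = 0.949) and, with calcitriol, -0.16 log2 in wild type (0.918) and 0.04 log2 in Vdr-/- (1). The other probe set, 1422270_a_at, read 23.9 on the wild-type calcitriol array and 91.5 to 191.5 on the other 7. Its change with IFN-gamma was 1.14 log2 (SE 0.475, limma adjusted p = 0.295), and the wild-type pair with calcitriol moved most. The low array is the one with the highest Gapdh 3'/5' ratio, and the part of that ratio was not tested.

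Il10ra encodes the ligand-binding chain for IL-10, a cytokine that restrains macrophage activation. Probe set 1448731_at read 103.7 on the array labelled untreated wild type, 81.5 with calcitriol, 230.8 with IFN-gamma and 87.1 with both. Readings in Vdr-/- were 7.8 on the array labelled untreated, 155.2 with calcitriol, 65.5 with IFN-gamma and 164.2 with both. Arrays with calcitriol were lower in wild type and higher in Vdr-/-. The changes were -0.88 log2 (SE 0.693, limma adjusted p = 0.713) and 2.32 log2 (SE 0.693, 0.271), and their difference was -3.20 log2 (SE 0.98, 0.119), so none was called. The difference was -0.46 log2 with the untreated arrays' labels swapped (0.957). Both Vdr-/- arrays without calcitriol had raised Gapdh ratios (4.82 and 3.06, against 0.853 and 1.07 with it). Their actin ratios were 3.27 and 1.53, against 1.39 and 1.48 with calcitriol. The part of these ratios was not tested. Probe set 1437808_x_at ran from 46.8 to 135.2 and was higher with IFN-gamma in 4 of 4 pairs (0.65 log2, limma adjusted p = 0.654). The last, 1456173_at, was at or below the floor on 6 of the 8 arrays.

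Il15ra encodes the chain that holds IL-15 on the cell surface for presentation to lymphocytes. Its probe set 1448681_at had 12.4 on the array labelled untreated wild type and 16.3 with IFN-gamma, but 85.5 with calcitriol and 81.2 with both. In Vdr-/- it read 45.7 on the array labelled untreated, 8.8 with calcitriol, 7.2 with IFN-gamma and 44.5 with both. The wild-type arrays split by calcitriol and the Vdr-/- arrays did not. The change was 2.39 log2 in wild type (SE 0.988, limma adjusted p = 0.389) and -0.02 log2 in Vdr-/- (1), with a difference of 2.41 log2 (0.527), and none was called. That difference was 0.85 log2 with the untreated arrays' labels swapped (0.923). The other probe set, 1422397_a_at, read 27 on the array labelled untreated wild type, 73.9 with calcitriol, 83.3 with IFN-gamma and 113.5 with both, and 36 to 54.9 in Vdr-/-. Its calcitriol change in wild type was 0.95 log2 (SE 0.845, limma adjusted p = 0.736).

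Calcitriol was compared with no calcitriol within each genotype, over the pairs without and with IFN-gamma. In wild type 1 of the 22 member probe sets was called, that of Il3ra, which fell, against a background of 0.576% of 18058 (0.388% lower). At an unadjusted p under 0.05 there were 3 of 22 (13.6%) against 10.3% of all tested. The median change was -0.34 log2, against 0.05 log2 over all tested probe sets. Groups did not overlap for 7 of the 22, against 34.5% of all tested. In Vdr-/- limma called 0 of the 22, against 0.194% of all tested (at an unadjusted p under 0.05, 2 of 22 or 9.09%, against 6.35%), and groups did not overlap for 6 of the 22, against 33.1%. For the difference between the genotypes it called 0 of the 22, against 1.50% (0.172% higher and 1.33% lower). At an unadjusted p under 0.05 there were 5 of 22 (22.7%), against 12.2% of all tested. Both wild-type pairs moved opposite to both Vdr-/- pairs for 6 of the 22, against 18.1% of all tested, and for IFN-gamma for 5 of the 22, against 8.39%.

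**Figure D2:**
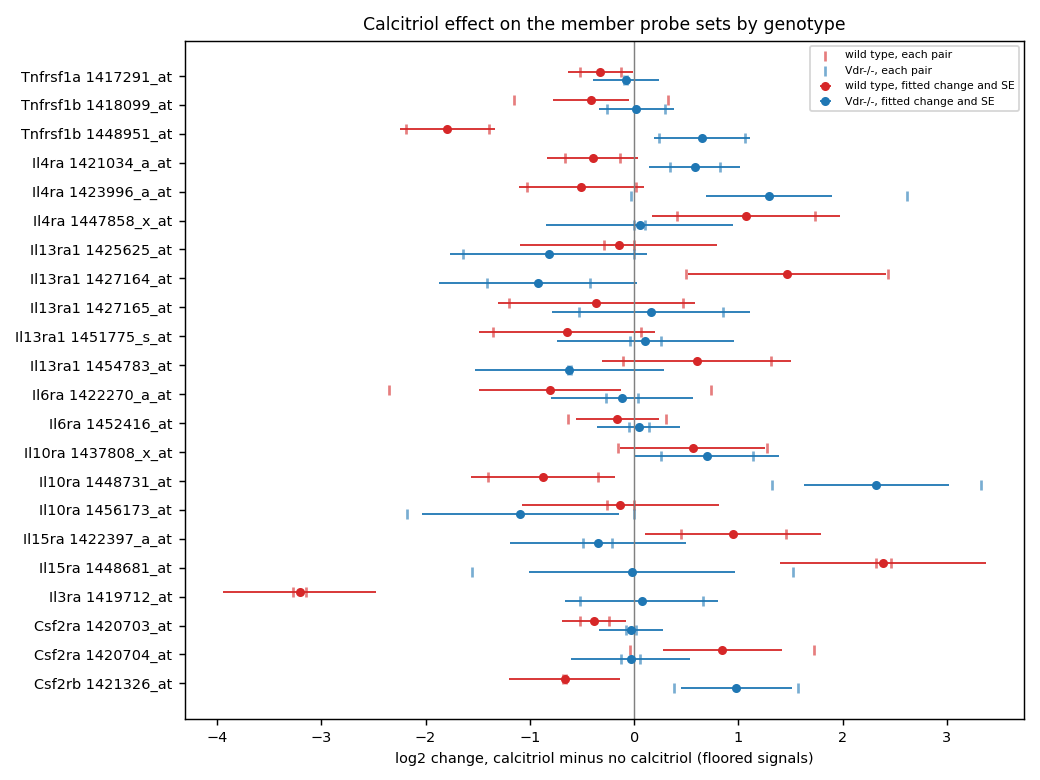
Change in log2 signal with calcitriol (x axis, floored signals) for each member probe set (y axis) in wild type (red) and Vdr-/- (blue). Circles with bars are the fitted change ± SE and ticks are the 2 pairs; the Il3ra probe set is at -3.21 in wild type and 0.07 in Vdr-/-.

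Il3ra encodes the chain that binds IL-3 and pairs with the shared beta chain. Its only probe set, 1419712_at, had 150.1 on the array labelled untreated wild type and 137 with IFN-gamma. It read 13.4 with calcitriol and 11.4 with both, below the floor. The Vdr-/- readings were 162.3 on the array labelled untreated, 113.2 with calcitriol, 76.2 with IFN-gamma and 120.5 with both. The 2 wild-type arrays with calcitriol were the lowest of the 8, and the other 6 lay at 76.2 to 162.3. With the floor as the lower group's level, Il3ra was at least 9.25-fold lower with calcitriol in wild type (-3.21 log2, SE 0.736, limma adjusted p = 0.0424). The pairs gave -3.28 log2 without IFN-gamma and -3.14 log2 with it. In Vdr-/- the change was 0.07 log2 (SE 0.736, limma adjusted p = 1). The difference between the genotypes was -3.28 log2 (SE 1.04, limma adjusted p = 0.138) and was not called.

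The Il3ra call is close to the threshold. It held with an additive fit (limma adjusted p = 0.0357) and was lost in 10 of 11 alternatives, with adjusted p of 0.0563 after quantile normalization, 0.0944 with the untreated arrays' labels swapped, 0.14 and 0.184 with the floor at the 10th and 40th percentiles, and up to 0.682 without the wild-type pair lacking IFN-gamma (0.451 without the pair with it). The size ranged from -3.54 to -1.84 log2, the smaller value with the higher floor. The Gapdh 3'/5' ratio was also higher with calcitriol in wild type (7.67 against 1.11, and 1.65 against 1.04). Without the 2 arrays with the highest ratio the Il3ra change was -3.20 log2 in an additive fit. The array with both agents was then the only wild-type calcitriol array. Among the 9 measured erythroid, megakaryocyte, mast cell and basophil markers, cells that also carry IL-3 receptors, the summed signal was 489 and 238 without calcitriol and 416 and 366 with it in wild type. Only 1 of these 9 was above the floor on all 8 arrays. Of the 9 macrophage markers 2 fell with calcitriol in wild type, Cd14 (-2.16 log2, limma adjusted p = 0.00636) and Fcgr1 (-2.36 log2, 0.00439), with a list median of -0.38 log2. In Vdr-/- 1 of 9 rose, Cd68 (1.66 log2, limma adjusted p = 0.0416). The difference between the genotypes was called lower for 4 of 9 (Cd14, Cd68, Fcgr1 and Itgam, -3.79 to -2.70 log2). Of 5 tested dendritic cell markers 1 had a called difference, Itgax, which was higher (2.32 log2, limma adjusted p = 0.0337). Over all tested probe sets 0.388% were called lower in wild type and 0.194% higher in Vdr-/-. For the difference 1.33% were called lower and 0.172% higher. All these marker calls were lost without the signal filter, with the stricter filter and without limma's intensity trend, where limma called 0 probe sets. Those in Vdr-/- and of the difference were also lost with the untreated arrays' labels swapped. The part of these markers in the member values was not tested.

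**Figure D3:**
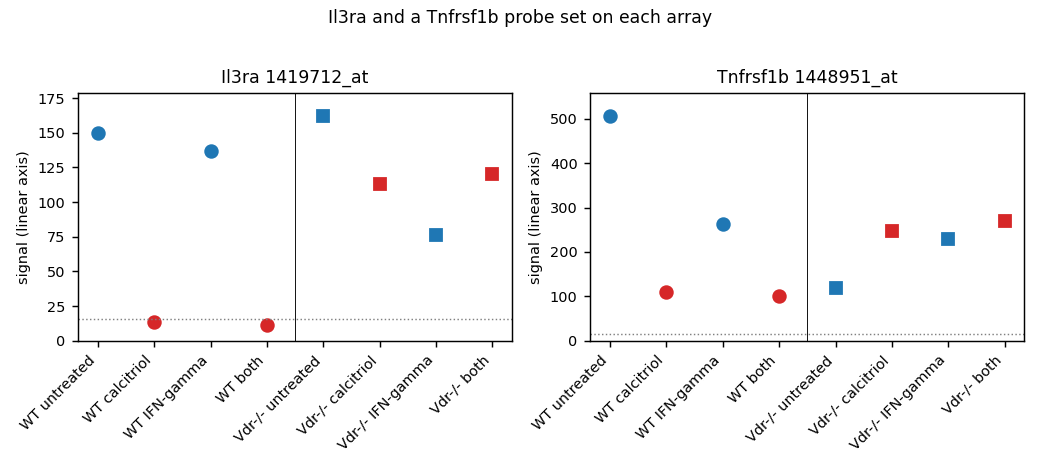
Signal (y axis, linear) on each of the 8 arrays (x axis) for Il3ra and Tnfrsf1b 1448951_at, with calcitriol arrays in red and the others in blue; the dotted line is the floor of 15.5. Il3ra reads 13.4 and 11.4 on the wild-type calcitriol arrays and 76.2 or more elsewhere, and Tnfrsf1b reads 110.8 and 100.6 there.

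Csf2ra, the GM-CSF binding chain, was bright on 1420703_at. It read 1455.1 on the array labelled untreated wild type, 1012.4 with calcitriol, 1195.4 with IFN-gamma and 1009.7 with both. Readings in Vdr-/- were 1334.5, 1260.8, 2073.4 and 2104.7. The Vdr-/- arrays with IFN-gamma were the highest of the 8. IFN-gamma pairs were at -0.28 and 0.00 log2 in wild type and 0.64 and 0.74 log2 in Vdr-/-, a difference of -0.83 log2 (SE 0.437, limma adjusted p = 0.996). The IFN-gamma change over all pairs was 0.27 log2 (SE 0.224, limma adjusted p = 0.698). The other probe set, 1420704_at, ran from 55.9 to 222.3, with the lowest value on the wild-type IFN-gamma array.

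Csf2rb, the beta chain shared by IL-3, IL-5 and GM-CSF receptors, read 171.7 on the array labelled untreated wild type, 107.2 with calcitriol, 287.2 with IFN-gamma and 182.4 with both on 1421326_at. In Vdr-/- it read 76.9, 229, 82.7 and 108.1. Calcitriol pairs were lower in wild type (-0.67 log2, SE 0.532, limma adjusted p = 0.718) and higher in Vdr-/- (0.98 log2, SE 0.532, 0.857). The difference was -1.65 log2 (SE 0.753, limma adjusted p = 0.378) and was not called, and was -0.49 log2 with the untreated arrays' labels swapped (0.919). Csf2rb2 is a near-identical copy next to it in the mouse that serves IL-3 alone, and the probe set naming both genes ran from 38 to 167.5. A Csf2rb2 probe set, 1449360_at, ran from 295.8 to 1060.5, with the highest value on the wild-type calcitriol array. Its calcitriol changes were 0.74 log2 in wild type (limma adjusted p = 0.527) and -0.47 log2 in Vdr-/- (0.935). Those of the probe set naming both genes were -0.40 log2 (0.863) and 0.95 log2 (0.903), and none was called. Cross-hybridisation between the copies cannot be told apart in these signals.

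**Figure D4:**
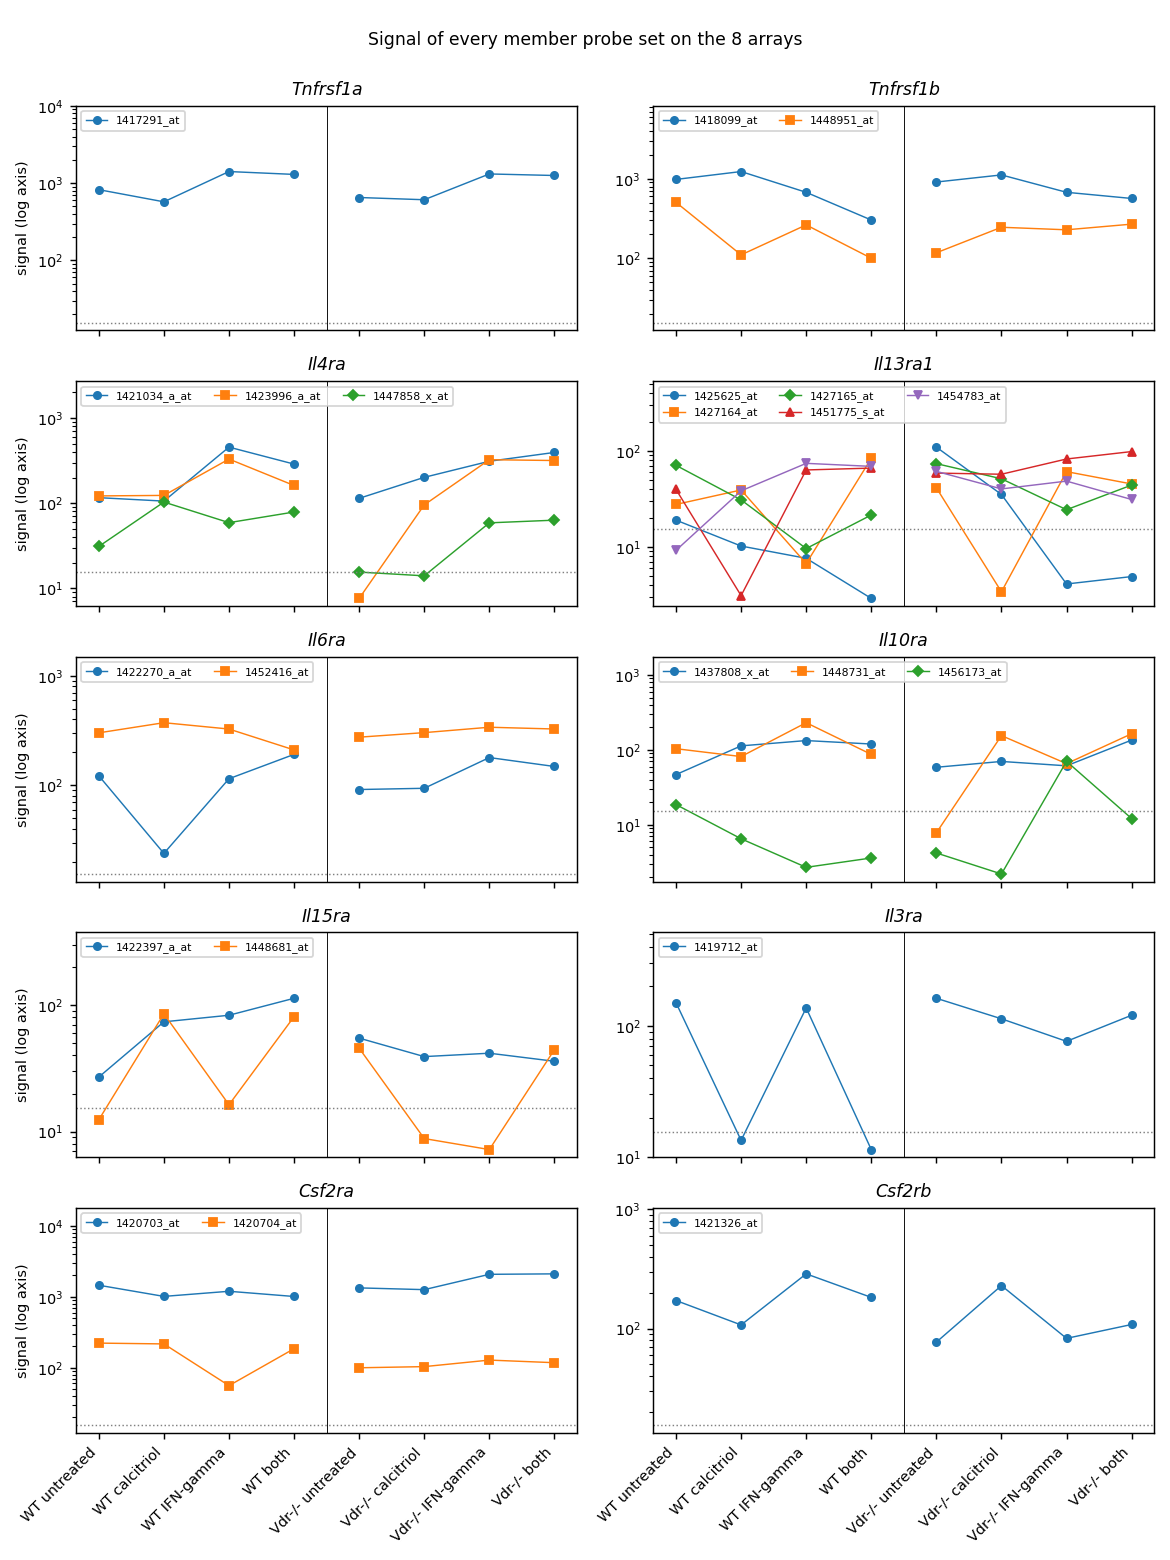
Signal (y axis, log scale) of the 22 member probe sets that name 1 gene, by gene, on the 4 wild-type and 4 Vdr-/- arrays (x axis); lines join the arrays of 1 probe set within a genotype and the dotted line is the floor of 15.5. Tnfrsf1a ran from 572.9 to 1413.6, and Il13ra1 probe sets lay at 2.9 to 109.7.

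Vdr-/- was compared with wild type over the 4 treatments. Limma called 0 of the 22 member probe sets and 0 of all 18058 (0 and 611 at an unadjusted p under 0.05). Member changes had a median of 0.07 log2 against -0.03 log2 over all tested. Il3ra had the largest, 1.27 log2 higher in Vdr-/- (SE 0.645, limma adjusted p = 0.999), with pairs of 2.87 and 2.96 log2 under calcitriol and of 0.11 and -0.85 log2 without it. The effect of IFN-gamma also gave 0 calls for a difference between the genotypes, among members and among all probe sets (1 and 635 at an unadjusted p under 0.05). Genotype and the source mice or cultures cannot be told apart. Groups did not overlap for 0 of the 22, against 2.20% of all tested.

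Other receptor chains and the pathways around the members were counted from lists, with the brightest probe set of each gene. With IFN-gamma, of 29 measured shared chains and other cytokine receptors 3 rose and 1 fell. Over all tested probe sets limma called 2.15% higher and 1.27% lower, the share to set beside each of these list counts. Il12rb1, of the IL-12 receptor, rose by 2.97 log2 (limma adjusted p = 0.000815), Cd40 by 2.51 log2 (0.0193) and Ifnar2, of the type I interferon receptor, by 1.16 log2 (0.0227), while the IL-7 receptor gene Il7r fell by 1.68 log2 (0.000281). The Cd40 call was lost in 8 of 13 alternatives, among them any 1 pair left out (limma adjusted p of 0.0901 to 0.383). Its other probe set was called (2.77 log2, 0.00866). A second Ifnar2 probe set was not called (0.64 log2, 0.51). The Ifnar2 call was lost in 10 of 13 alternatives, with 0.53 log2 (0.61) without the 2 arrays with the highest Gapdh ratio and 0.67 log2 (0.522) without the wild-type pair with calcitriol. Of 18 measured JAK, STAT and adaptor genes 2 rose: Ptpn6, a phosphatase that dampens cytokine receptors, by 2.05 log2 (3.28e-05), and Stat3, which IL-6 and IL-10 receptors activate, by 1.65 log2 (0.000243), although 1 of 3 Stat3 probe sets was lower (-0.76 log2, 0.661). Without the 2 arrays with the highest Gapdh ratio Ptpn6 had 0.98 log2 (limma adjusted p = 0.567) and Stat3 1.08 log2 (0.384). Of 7 feedback inhibitors 2 rose, Socs1 by 3.73 log2 (4.68e-06) and Socs3 by 2.76 log2 (0.00109). The median changes of these lists were -0.06, 0.09 and 0.66 log2, against -0.08 log2 over all tested.

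Ligands and targets of the members were mixed under IFN-gamma, for which limma called 3.43% of all tested probe sets. Of 5 measured ligand genes 0 were called by limma, with Tnf at 1.43 log2 (adjusted p = 0.0696) and Il10 at 1.33 log2 (0.443). Of 4 genes of receptor shedding 0 were called, with Rhbdf1 at -1.13 log2 (limma adjusted p = 0.212) and the TNF receptor sheddase gene Adam17 at 0.19 log2 (0.804). Of 6 measured target genes of IL-4 and IL-13, whose shared chain Il4ra rose, Tgm2 rose by 2.31 log2 (limma adjusted p = 8.93e-08) and Mrc1, the mannose receptor, fell by 1.95 log2 (2.75e-05). Of 9 measured TNF targets the adhesion gene Icam1 rose by 2.07 log2 (5.13e-06), and Sod2 had 0.69 log2 (0.103). Of 6 IL-10 and IL-6 targets 2 rose, Socs3 and Stat3 again. Of 5 GM-CSF and IL-3 targets 1 rose, the class II regulator Ciita by 4.44 log2 (9.38e-08), and Pim1 had 0.67 log2 (0.219). Without the 2 arrays with the highest Gapdh ratio, none of the 12 pathway genes named as risen or fallen with IFN-gamma was called (limma adjusted p of 0.0764 to 0.61).

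Marker sums moved with IFN-gamma as well. The summed signal of 9 macrophage markers was 53976 to 59537 without IFN-gamma and 35658 to 52170 with it, and 1 of the 9 was called, Fcgr1, which rose by 1.96 log2 (limma adjusted p = 3.17e-05). It was 415 to 720 against 281 to 355 for 9 neutrophil markers, of which 0 of 6 tested were called by limma, and 514 to 965 against 210 to 374 for 10 stromal markers, of which 1 of 8 was called, Col3a1 (-2.02 log2, limma adjusted p = 0.0308). The ranges overlapped for dendritic cell markers (725 to 1507 against 926 to 2486), of which Cd83 rose by 1.74 log2 (limma adjusted p = 0.000407), and for lymphocyte and NK cell markers (179 to 596 against 213 to 416). They did not for erythroid, megakaryocyte, mast cell and basophil markers (416 to 672 against 238 to 366), of which Pf4 fell by 1.42 log2 (limma adjusted p = 0.0086). No marker was at the floor on all 8 arrays, but outside the macrophage list few were above it on all 8. These were 2 of 9 neutrophil, 1 of 10 stromal and 2 of 7 dendritic cell markers. They were 0 of 11 for lymphocytes and NK cells and 1 of 9 for the erythroid to basophil list. Limma called 3.43% of all tested probe sets with IFN-gamma. Their part in the receptor changes was not tested, and fewer cells of a type cannot be told apart from less RNA per cell.

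With calcitriol in wild type, the IL-4 and IL-13 targets were the 1 pathway list with calls. Of 6 measured genes 2 rose, Mrc1 by 1.92 log2 (limma adjusted p = 0.0216) and Tgm2 by 1.63 log2 (0.0182), and Egr2 had 1.65 log2 (0.219). Over all tested probe sets 0.188% were called higher. The Mrc1 call was lost in 8 of 11 alternatives and the Tgm2 call in 7, among them either wild-type pair left out (adjusted p of 0.451 and 0.682). Of the 6 Tgm2 probe sets 3 were called and 1 was lower (-1.63 log2, 0.276). Among the other receptors Il1rap, the IL-1 receptor accessory chain, had 2.39 log2 (0.329) and Csf3r, the G-CSF receptor, -1.53 log2 (0.0796). The Csf3r effects of the genotypes had a called difference, wild type minus Vdr-/- (-2.22 log2, SE 0.546, limma adjusted p = 0.0368), which was kept in 2 of 13 alternatives and was -1.44 log2 (0.776) with the untreated arrays' labels swapped. Ptpn6 had -1.03 log2 in wild type (0.34) and rose by 1.90 log2 in Vdr-/- (limma adjusted p = 0.0416), a called difference of -2.92 log2 (0.00576) that was not called for its second probe set (0.15 log2, 0.939). With those labels swapped Ptpn6 had 0.97 log2 in Vdr-/- (limma adjusted p = 1) and a difference of -1.08 log2 (0.748), and the calls were lost in 10 of 11 and 9 of 13 alternatives. Ligand, signalling, shedding, IL-10, GM-CSF and TNF target lists had 0 calls by limma in wild type. Among them were -1.46 log2 for Il10 (adjusted p = 0.641), 1.44 log2 for Socs3 (0.515), 1.33 log2 for Socs2 (0.689), 0.91 log2 for Nfkb2 (0.702) and 0.65 log2 for Adam10 (0.592), and Ciita had -1.62 log2 (0.319).

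Genes with profiles nearest to the called members were found by the root mean square difference of centred log2 signals over the 8 arrays. For Tnfrsf1a they were Ogfr (0.157 log2), Pgs1 (0.185) and Nudt21 (0.191). For Tnfrsf1b 1418099_at they were Plxnc1 (0.12 log2), Mical1 (0.201) and Stk10 (0.205). For Il4ra 1421034_a_at they were H2-M3 (0.136 log2), Bid (0.139) and Lcp2 (0.152), and for 1423996_a_at Anapc5 (0.3 log2), Acvrl1 (0.392) and a probe set of Ogfr (0.438). For Il3ra they were Isoc2b (0.272 log2), Ap2a2 (0.323) and Hlx (0.354), the largest distances beside those of the second Il4ra probe set. Both of these profiles also spread most over the arrays (SD 1.33 and 1.36 log2, against 0.52 to 0.80 log2 for the others), so the distances do not rank similarity.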

How the data were processed

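Total RNA was measured on 8 one-colour arrays. The deposited values were linear intensity signals per probe set, which the authors had scaled to the same 2% trimmed mean (150.07 to 150.08, as the values show). Software and detection calls: not given in the sources used here. From 22690 probe sets 64 controls were removed. Signals were set to at least 15.5 (pooled 25th percentile), log2 was taken, and testing was limited to the 18058 probe sets with at least 1 signal at or above the pooled median (59.1). Of these values 14.3% to 16.5% per array were at the floor. The annotation named 1 gene for 20380 probe sets, several for 691 and none for 1555. Tests used limma 3.58.1 in R 4.3.3 (empirical Bayes with intensity trend, two-sided, Benjamini-Hochberg adjustment across every tested probe set, threshold 0.05). The IFN-gamma and genotype fits took the 4 array pairs as a block and left 3 residual degrees of freedom. Treatment effects per genotype, and their differences, were fitted as nested terms, which left 2. The fits were run on simulated data with independent noise, without a floor and without arrays of raised Gapdh ratio. That run cannot check how those features affect the calls. Figures used Python 3.11.15 and matplotlib 3.10.9. The members, lists and alternatives were chosen with earlier results of these data known. Named were all member probe sets, called and most changed list genes (for the IFN-gamma and wild-type calcitriol comparisons) and the 3 nearest profiles. P-values measure only the spread between these arrays.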

Additional observations from a re-analysis of the deposited data

Results flagged for a closer look

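Some member probe sets moved one way in both wild-type pairs and the other way in both Vdr-/- pairs. For calcitriol this held for 6 of 22 (27.3%), against 18.1% of all tested probe sets. The differences, wild type minus Vdr-/-, were -0.98 log2 for Il4ra 1421034_a_at, -1.65 log2 for Csf2rb, 1.30 log2 for Il15ra 1422397_a_at, 2.39 log2 for Il13ra1 1427164_at, -3.20 log2 for Il10ra 1448731_at and -2.44 log2 for Tnfrsf1b 1448951_at. The lowest limma adjusted p among these 6 was 0.0591, for Tnfrsf1b.

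For IFN-gamma it held for 5 of 22 (22.7%), against 8.39% of all tested probe sets. The differences were -0.83 and -1.38 log2 for the Csf2ra probe sets 1420703_at and 1420704_at, 1.38 log2 for Il15ra 1422397_a_at, -1.09 log2 for Tnfrsf1b 1448951_at and 1.91 log2 for Il13ra1 1454783_at. Each had a limma adjusted p of 0.996. All of these differences use the arrays labelled untreated, whose Vdr signals go against their labels.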

How the results depend on the processing

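No called member change had another sign under any alternative that was run, but the calls depended on the settings. Of 13 alternatives for IFN-gamma, Tnfrsf1a and Il4ra 1421034_a_at kept their call in 7 each, Il4ra 1423996_a_at in 4 and Tnfrsf1b 1418099_at in 3, and Il3ra kept its call in 1 of 11. Over the other 127 member values, 1 of 1505 alternative values was called and 146 had the opposite sign. The numbers below are limma calls among all tested probe sets, then among the 22 member probe sets where that number moved. The IFN-gamma counts were 619 and 4. They were 80 and 0 with no filter (2180, in parentheses the count at an unadjusted p under 0.05), 70 and 0 without the intensity trend (1834), 53 and 0 without the 2 arrays with the highest Gapdh ratio (1589), 394 over all with additive covariates and 2 among members with the stricter filter. With each pair left out they ranged from 99 to 420 and from 0 to 2, the lowest without the Vdr-/- pair lacking calcitriol. The wild-type calcitriol counts were 104 and 1. They were 0 and 0 without the filter (1680), with the stricter filter (1083), without the trend (1406), without those 2 arrays (1407) and with either wild-type pair left out (1160 and 1963). They were 5 and 0 with the lower floor and 20 and 0 with the untreated labels exchanged, and the member count was 0 with the higher floor and after quantile normalization. Calcitriol in Vdr-/- gave 35 calls, and 0 without the filter (1045), with the stricter filter (599), without the trend (1017), without those 2 arrays (740), with exchanged labels (610) and with either pair left out (132 and 765), 1 with the lower floor, 58 with the higher floor and 18 after quantile normalization. The difference in calcitriol effect gave 271 calls, and 0 in the same first 4 settings (2028, 1378, 1611 and 1174), with exchanged labels (1126) and with any pair left out (442 to 2107), and 100 with the lower floor, while 1 member was called with the higher floor. Exchanged labels gave 7 calls for genotype and 109 for the difference in IFN-gamma effect, both 0 otherwise. A pair left out or fewer arrays leaves 1 or 2 residual degrees of freedom, and the cause of the other shifts was not tested. The setting without the 2 arrays with the highest Gapdh ratio also used the additive fit. Its shifts therefore join fewer arrays with another model. Signals near the floor limit Il13ra1, Il15ra and Il10ra.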
